A study of Mus musculus with 4 samples.

Results

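Ribosome biogenesis factors, the proteins that make ribosomes but are not part of them, were followed in mouse peritoneal macrophages by RNA sequencing. The 36 genes were chosen by symbol for their textbook role, with earlier results of these data known. Each matched 1 of the 55414 genes in the deposited table. Cells of the LUP group were treated for 24 h with 0.5 mg/ml LUP, and cells of the vehicle group received complete medium for 24 h. Each group had 2 libraries, numbered 1 and 2. The labels leave the abbreviation LUP unexplained, give no age, sex or strain of the mice, and do not tie the libraries to separate animals or cultures. The p-values below therefore measure the spread between these libraries, which may be technical.

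As background, ribosomes are built in the nucleolus. RNA polymerase I makes a long precursor of the ribosomal RNAs there, small nucleolar ribonucleoproteins (snoRNPs) modify it, and the small subunit processome and a chain of large subunit factors fold, cut and release it. Production takes much of a growing cell's resources and is under the control of Myc and of nutrient signalling.

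Ribosome biogenesis genes were modestly higher with LUP. At an adjusted p under 0.05 (edgeR quasi-likelihood), 27 of the 36 genes rose (75%) and 0 fell. Of all 13355 tested genes 50.8% were called, 27.1% higher and 23.7% lower. Among those calls 53.4% were higher with the TMM scaling used here and 41.4% after quantile normalization. The rises were between 1.13-fold and 1.64-fold, with a median of 1.38-fold among the genes that rose. Over all 36 genes the median log2 fold change was 0.34, against -0.00 over all tested genes. The genes that rose by at least 1.5-fold were the 5 genes Rrp9, Bop1, Bysl, Rrs1 and Utp4, beside 10.8% of all tested genes. At an unadjusted p under 0.05, 29 genes were higher and 0 lower. The share of all tested genes at an unadjusted p under 0.05 was not computed, here or for the lists below. DESeq2 called 22 higher and 0 lower, beside 2759 of all 13355 tested genes higher. With limma on log2(TPM + 1), 13 were higher and 0 lower, beside 1935 of all 12059 genes tested that way higher. In bulk RNA a change in the number of cells of a type and a change in RNA per cell cannot be told apart.

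The scaled level used below is CPM, a gene's counts relative to the library's total after TMM scaling, which suits comparing a gene between groups. Summed over the 36 genes it was 1920 and 1891 CPM in the LUP libraries and 1569 and 1566 CPM in the vehicle libraries. Both LUP libraries lay above both vehicle libraries for 32 of the 36 genes, as they did for 37.8% of all tested genes. The groups overlapped for Gar1, Nop10 and Gnl3, and Imp3 was the 1 gene with both LUP libraries below both vehicle libraries. No library stood apart within its group: the median of the 36 genes, relative to the vehicle mean, was 0.37 and 0.33 on the log2 scale in the LUP libraries and 0.01 and -0.01 in the vehicle libraries.

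**Figure D1:**
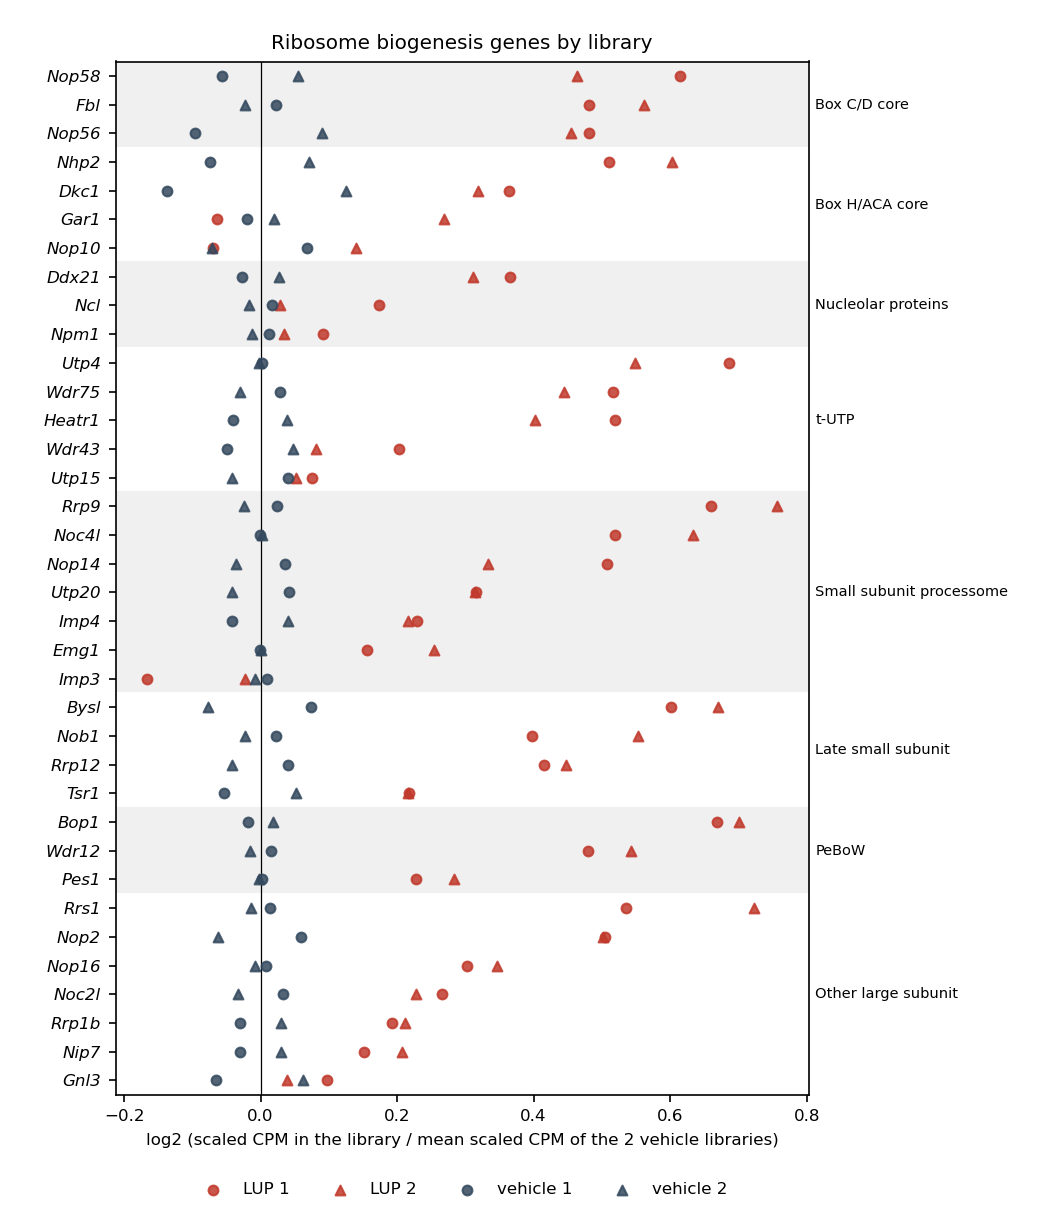
Level of each of the 36 genes in each library, as log2 of its scaled CPM over the mean of the 2 vehicle libraries, grouped by role; red marks are LUP libraries and dark marks vehicle libraries. The red marks lie right of the dark marks for 32 genes and overlap or lie left of them for Gar1, Nop10, Gnl3 and Imp3.

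The sequence around the start sites was read from RefSeq's promoter table (GRCm38.p6), which held 31 of the 36 genes. Fbl, Npm1, Bop1, Rrs1 and Rrp12 were not matched. The windows ran from 250 bases before to 50 bases after each start site. The E-box CACGTG, which Myc and Max bind among other factors and which reads the same on both strands, was in a window of 7 of the 31 genes (22.6%). It was in 7.15% of all 32851 windows, in 8.09% of all genes with a window and in 11.8% of the tested genes with one. The E-box began before the start site in Nop2 and Imp4 (-121) only. It began after the start site in Pes1 (2), Utp4 (15), Wdr43 (17), Tsr1 (24) and Utp20 (37). CCGGAAG or its reverse complement CTTCCGG, the core bound by ETS family factors, was in 9 of the 31 genes (29%), against 8.86% of all windows and 20.6% of the tested genes. Among the members that rose, 6 of 23 had the E-box and 8 of 23 the ETS core, and among those not called 1 of 8 had each. Genes of cytosolic ribosomal proteins, which were mostly lower with LUP (below), had the E-box in 6 of 57 cases and the ETS core in 23 of 57. These are matches of letters and no test was made. The 250 bases before the start site are shown for 4 genes that the results turn on, with matches in capitals: Nop2, a gene that rose and holds both motifs, Nhp2 and Gar1, which encode partners in the same snoRNP and differ in their call, and Rrp9, which had the largest rise and holds neither. Nop2 is on the plus strand at chr6:125131633-125131882, with its E-box starting at -60 and its ETS core at -38 from the start site. Nhp2 is on the plus strand at chr11:51619523-51619772, with the ETS core at -23, and Gar1 on the minus strand at chr3:129831397-129831646, with it at -43. Rrp9 is on the plus strand at chr9:106477059-106477308.
Nop2: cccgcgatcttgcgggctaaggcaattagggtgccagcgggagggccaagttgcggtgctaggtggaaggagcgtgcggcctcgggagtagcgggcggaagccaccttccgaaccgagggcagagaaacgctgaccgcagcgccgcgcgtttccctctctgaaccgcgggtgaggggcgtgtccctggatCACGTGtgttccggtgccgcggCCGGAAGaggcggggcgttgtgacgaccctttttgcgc
Nhp2: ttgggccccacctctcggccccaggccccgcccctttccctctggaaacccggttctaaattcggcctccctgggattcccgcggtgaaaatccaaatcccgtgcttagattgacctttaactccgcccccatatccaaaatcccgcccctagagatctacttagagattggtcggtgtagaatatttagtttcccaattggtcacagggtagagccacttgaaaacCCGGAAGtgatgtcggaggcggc
Gar1: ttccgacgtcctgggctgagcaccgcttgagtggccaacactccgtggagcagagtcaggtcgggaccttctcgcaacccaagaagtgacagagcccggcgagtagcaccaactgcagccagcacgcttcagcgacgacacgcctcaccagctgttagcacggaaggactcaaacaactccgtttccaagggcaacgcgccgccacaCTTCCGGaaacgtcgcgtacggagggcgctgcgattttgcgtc
Rrp9: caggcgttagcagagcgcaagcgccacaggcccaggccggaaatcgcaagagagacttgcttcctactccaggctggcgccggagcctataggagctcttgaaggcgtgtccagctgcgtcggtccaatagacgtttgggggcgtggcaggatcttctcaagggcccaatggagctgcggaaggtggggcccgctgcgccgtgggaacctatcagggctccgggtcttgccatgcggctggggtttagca

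The core proteins of box C/D snoRNPs, which guide methylation of ribosomal RNA, all rose. Fbl encodes fibrillarin, the methyltransferase of these particles, and had 58.7 and 62.1 CPM in the LUP libraries against 42.7 and 41.4 CPM in the vehicle libraries, a 1.44-fold rise (log2 0.52, SE 0.06, adjusted p = 7.98e-07). Nop56 had 51.2 and 50.3 CPM with LUP and 34.4 and 39.1 CPM with vehicle, and its partner Nop58 had 28.9 and 26.0 CPM with LUP and 18.2 and 19.6 CPM with vehicle. Their folds were 1.38 and 1.45, close to that of Fbl, and in all 3 genes the groups were separate in CPM and in TPM. Per length, Fbl averaged 90.8 ± 1.10 TPM in LUP libraries and 67.7 ± 0.389 TPM in vehicle libraries (SD, n = 2 each). The Fbl, Nop56 and Nop58 counts were not whole in every library, so some of their reads were shared out among matching genes.

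Box H/ACA snoRNPs guide the change of uridine to pseudouridine, and their 4 core genes differed in their calls. Nhp2, an RNA-binding core protein, had 53.1 and 56.6 CPM with LUP and 35.4 and 39.1 CPM with vehicle, a 1.47-fold rise (adjusted p = 1.27e-06). Dkc1, the pseudouridine synthase dyskerin, had 13.3 and 12.9 CPM with LUP and 9.43 and 11.3 CPM with vehicle (1.26-fold, adjusted p = 0.0207). The Dkc1 call was made in 6 of 12 alternatives. It was lost with DESeq2 (adjusted p = 0.15), with limma on quantile-normalized log2 CPM or on TPM, and without vehicle replicate 1. In TPM the groups overlapped for Dkc1 (10.15 and 9.33 with LUP, 5.8 and 9.51 with vehicle). Gar1 had 6.77 and 8.53 CPM with LUP and 6.98 and 7.18 CPM with vehicle, and Nop10, the smallest core protein, had 19.8 and 22.9 CPM with LUP and 21.8 and 19.8 CPM with vehicle. For both the groups overlapped. The 95% interval of the fold was 0.864 to 1.35 for Gar1 and 0.903 to 1.17 for Nop10. The estimated fold of Nhp2 lay above both intervals, but its own interval (1.33 to 1.62) overlapped that of Gar1. Whether the change of Nhp2 differed from that of Gar1 or Nop10 was not tested.

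Of the 3 abundant multifunctional proteins of the nucleolus 1 was called. Ddx21, a helicase that acts in ribosomal RNA transcription and processing, had 105 and 101 CPM with LUP and 80.2 and 83.2 CPM with vehicle, a 1.26-fold rise (adjusted p = 7.78e-06). Ncl encodes nucleolin, which binds the ribosomal RNA precursor, and had 279 and 252 CPM with LUP and 250.3 and 244 CPM with vehicle. Its fold was 1.07 with an adjusted p of 0.0658, and it was called without LUP replicate 2 (0.000213) and without a filter on low counts (0.0342). Npm1 encodes nucleophosmin, a histone and ribosome chaperone, and had 237 and 227 CPM with LUP and 224 and 220.3 CPM with vehicle (1.04-fold, 95% interval 0.986 to 1.11, adjusted p = 0.198). Npm1 was the most abundant of the 36 genes per length, averaging 353 ± 14.04 TPM in LUP libraries and 363 ± 4.21 TPM in vehicle libraries (SD, n = 2 each). Its counts and those of Ncl were not whole in every library, so their level depends on how reads were shared out.

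Genes of the small subunit processome and of late small subunit maturation rose in 13 of 16 cases, with a median log2 fold change of 0.43. The t-UTP proteins bind the precursor first and link its transcription to its processing. Among them Utp4 had 29.1 and 26.4 CPM with LUP and 18.1 and 18.0 CPM with vehicle, a 1.54-fold rise (adjusted p = 2.22e-06). Heatr1 had 57.9 and 53.4 CPM with LUP and 39.3 and 41.5 CPM with vehicle, and Wdr75 27.9 and 26.5 CPM with LUP and 19.9 and 19.1 CPM with vehicle. Their folds were 1.38 and 1.40. Wdr43 (1.10-fold, adjusted p = 0.0947, and 0.0465 without LUP replicate 2) and Utp15 (1.05-fold, 95% interval 0.952 to 1.15) were not called, though both LUP libraries lay above both vehicle libraries in CPM.

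Of the 7 other processome genes 6 rose. Rrp9 encodes a protein specific to the snoRNP that pairs with the small subunit precursor, and it had the largest change of the 36 genes. Its level was 22.9 and 24.4 CPM in the LUP libraries and 14.7 and 14.2 CPM in the vehicle libraries, a 1.64-fold rise (log2 0.71, SE 0.08, adjusted p = 9.94e-07). Noc4l and Nop14, whose yeast counterparts form a complex, rose 1.49-fold and 1.34-fold. Utp20, a very large scaffold protein, had 52.9 and 52.9 CPM with LUP and 43.8 and 41.3 CPM with vehicle (1.24-fold). Imp4 and Imp3 both bind Mphosph10 in the processome, and they differed in their call. Imp4 had 63.2 and 62.7 CPM with LUP and 52.4 and 55.5 CPM with vehicle (1.17-fold, adjusted p = 0.00346). In TPM the groups overlapped for Imp4 (43.1 and 28.0 with LUP, 30.8 and 29.7 with vehicle). The Imp4 call was made in 8 of 12 alternatives and lost with limma on quantile-normalized log2 CPM or on TPM. Imp3 had 22.6 and 25.0 CPM with LUP and 25.5 and 25.2 CPM with vehicle, a fold of 0.937 (95% interval 0.839 to 1.05, adjusted p = 0.33), and the difference between the changes of Imp4 and Imp3 was not tested. Emg1, a methyltransferase acting on pseudouridine, was 1.15-fold higher (adjusted p = 0.0175). The Emg1 call was made in 4 of 12 alternatives. It was lost with DESeq2 (adjusted p = 0.15) and with limma on quantile-normalized log2 CPM or on TPM. It was also lost without LUP replicate 2, without vehicle replicate 1 and without vehicle replicate 2.

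The late small subunit genes all rose. Bysl, which encodes bystin, had 27.2 and 28.5 CPM with LUP and 18.9 and 17.0 CPM with vehicle, a 1.56-fold rise (adjusted p = 1.76e-06). Nob1, the endonuclease that makes the final cut of the small subunit RNA, had 20.7 and 23.0 CPM with LUP and 16.0 and 15.5 CPM with vehicle (1.39-fold). Rrp12, a factor of subunit export, rose 1.35-fold. Tsr1, a late factor that resembles a translational GTPase, rose 1.16-fold (adjusted p = 0.0199). Its call was made in 6 of 12 alternatives. It was lost with DESeq2 (adjusted p = 0.177), with limma on quantile-normalized log2 CPM or on TPM, and without vehicle replicate 1. For Bysl, Nob1, Rrp12 and Tsr1 the groups were separate in CPM and in TPM.

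Large subunit factors rose in 8 of 10 cases, with a median log2 fold change of 0.29. Pes1, Bop1 and Wdr12 form the PeBoW complex, which is needed to process the large subunit precursor, and the 3 genes rose. Bop1 had 61.4 and 62.9 CPM with LUP and 38.1 and 39.2 CPM with vehicle, a 1.61-fold rise with the lowest adjusted p of the 36 genes (1.61e-08). Wdr12 had 22.4 and 23.4 CPM with LUP and 16.3 and 15.9 CPM with vehicle (1.43-fold, 95% interval 1.27 to 1.61). Pes1 had 88.5 and 92.1 CPM with LUP and 75.8 and 75.5 CPM with vehicle (1.19-fold, 95% interval 1.11 to 1.28). The interval of Pes1 lay below that of Bop1, which was 1.47 to 1.75, and the interval of Wdr12 overlapped both. Differences between the 3 genes were not tested. The calls of Wdr12 and Pes1 were lost with limma on TPM, and that of Bop1 was kept.

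The other large subunit genes were Rrs1, Nop2, Nop16, Noc2l, Rrp1b, Nip7 and Gnl3. Rrs1, whose yeast counterpart helps bring the small ribosomal RNA of the large subunit into the precursor, had 48.4 and 55.1 CPM with LUP and 33.7 and 33.0 CPM with vehicle (1.55-fold, adjusted p = 4.3e-07). Nop2, a methyltransferase of ribosomal RNA and a proliferation antigen, had 38.4 and 38.3 CPM with LUP and 28.2 and 25.9 CPM with vehicle (1.42-fold, adjusted p = 5.5e-06). Nop16 rose 1.25-fold, a call made in 8 of 12 alternatives and lost with DESeq2 (adjusted p = 0.091) and with limma on TPM. Noc2l, also known as an inhibitor of histone acetyltransferases, rose 1.19-fold. Rrp1b was 1.15-fold higher without a call (adjusted p = 0.0837), with separate groups in CPM and in TPM. Nip7 was 1.13-fold higher at an adjusted p of 0.0493, just inside the threshold. It was called in 1 of 12 alternatives and was lost without LUP replicate 2 (0.17), without vehicle replicate 1 (0.217) and without vehicle replicate 2 (0.1). Gnl3, which encodes the GTPase nucleostemin, had 35.7 and 34.3 CPM with LUP and 31.9 and 34.9 CPM with vehicle (1.05-fold, 95% interval 0.947 to 1.16).

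**Figure D2:**
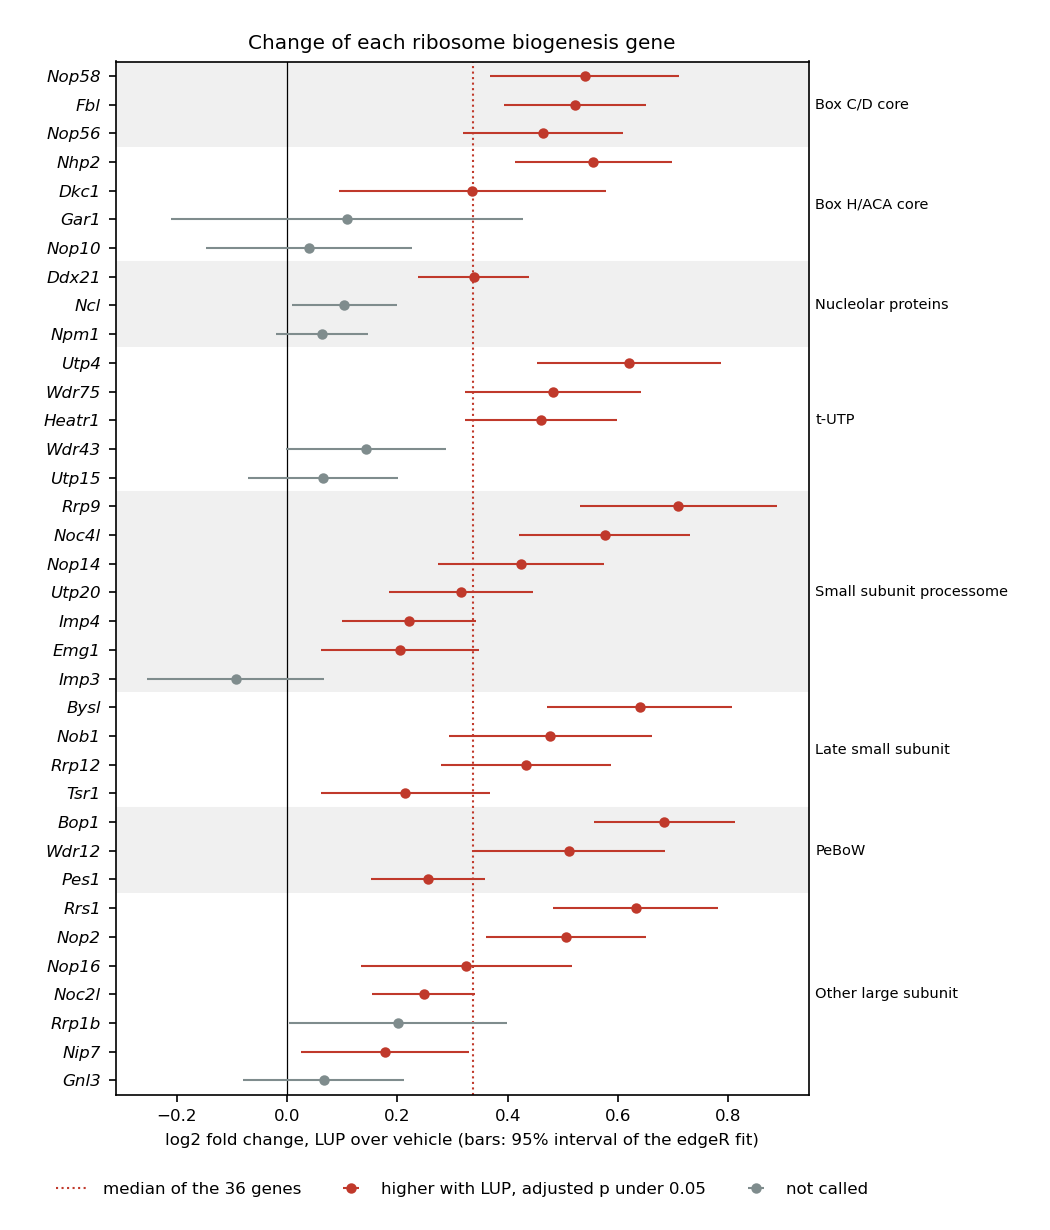
Log2 fold change of each of the 36 genes, LUP over vehicle, with the 95% interval of the edgeR fit over 2 libraries a group; red genes were called higher and grey genes were not called. The 27 red genes lie between 1.13-fold and 1.64-fold, and the dotted line marks the median log2 fold change of 0.34 over all 36 genes.

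The members spanned a wide range of level per length, from 6.32 TPM for Rrp1b to 358 TPM for Npm1 over the 4 libraries, with a median of 26.5 TPM. Npm1 and Ncl, the 2 most abundant, were not called. Nhp2 and Fbl followed at 85.3 and 79.2 TPM and rose. Noc2l (76.9 TPM), Emg1 (59.8 TPM), Imp3 (53.8 TPM) and Nop56 (50.7 TPM) came next. At the low end Dkc1 (8.70 TPM), Rrp12 (8.96 TPM) and Bysl (9.06 TPM) lay close together. Neighbours in this order often lay within each other's spread: in vehicle libraries Dkc1 stood at 7.66 ± 2.62 TPM, Rrp12 at 7.93 ± 0.191 TPM and Bysl at 7.41 ± 0.431 TPM (SD, n = 2). All 36 genes passed the filter on low counts. Taken by TPM, both LUP libraries lay above both vehicle libraries for 24 genes, against 27.6% of all tested genes.

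Changes were mostly lower by TPM than by counts. The log2 ratio of mean TPM was below the log2 fold change from counts for 31 of the 36 genes. The median gap was 0.11 on the log2 scale (TPM minus counts -0.11). Over all tested genes the median log2 fold change was also lower by TPM. It was -0.08 with limma on log2(TPM + 1), against -0.00 in the main test. TPM divides counts by the length of the isoforms estimated in each library, then by the library's sum of these length-divided counts, with no TMM scaling. Utp20 shows the gap: its TPM was 14.4 and 10.6 with LUP and 12.6 and 12.0 with vehicle, and the groups overlapped although its CPM did not. Nip7 had 31.5 and 33.8 TPM with LUP and 33.0 and 36.7 TPM with vehicle, the opposite direction to its counts. Wdr75 and Tsr1 went the other way, with 29.6 and 34.6 TPM with LUP and 14.7 and 21.9 TPM with vehicle for Wdr75. For Tsr1 the values were 19.0 and 16.5 TPM with LUP and 10.9 and 14.2 TPM with vehicle. The 13 genes called in every one of the 12 alternatives were Fbl, Nop56, Nhp2, Heatr1, Wdr75, Utp4, Rrp9, Noc4l, Nob1, Bysl, Bop1, Nop2 and Rrs1. The share of all tested genes called in every alternative was not computed, so this count has no background beside it.

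**Figure D3:**
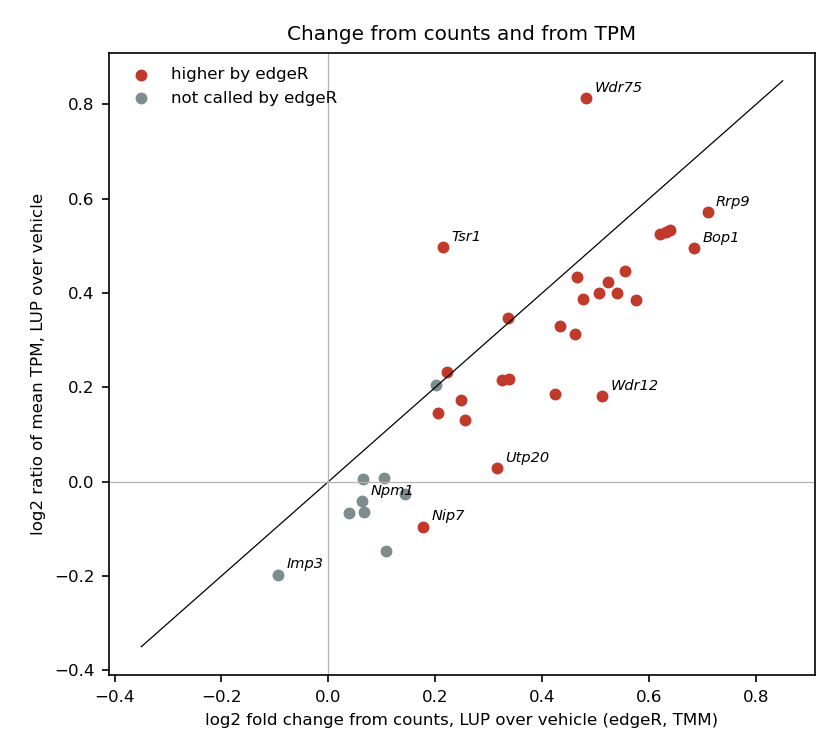
Log2 fold change from counts (horizontal) beside the log2 ratio of mean TPM (vertical) for the 36 genes, LUP over vehicle; the diagonal marks equal values. Of the 36 genes 31 lie below the diagonal, and Wdr75 and Tsr1 lie clearly above it.

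Reads of overlapping genes could enter some of these values, since whether the library kit kept the strand is not stated. In the GENCODE M21 annotation, exons of 11 members overlapped exons of a gene on the opposite strand that had over 20 counts in every library. The overlap was 361 bases for Bysl and the cyclin gene Ccnd3, which itself was higher with LUP (39.6 and 40.8 TPM, against 23.5 and 20.5 TPM with vehicle). It was 334 bases for Emg1 and Lpcat3, which also was higher (39.5 and 35.9 TPM with LUP, against 30.0 and 28.1 TPM with vehicle). For Tsr1 and Srr it was 1240 bases, and Srr was lower (5.24 and 4.68 TPM with LUP, against 5.98 and 7.71 TPM with vehicle). Rrp9, the gene with the largest rise, overlapped Parp3 by 20 bases, and Parp3 was higher too (35.03 and 32.57 TPM with LUP, against 20.15 and 17.63 TPM with vehicle). Bop1 overlapped Mroh1 by 50 bases, and Mroh1 was not called (log2 -0.07, adjusted p = 0.146). Heatr1 overlapped Lgals8 by 155 bases and Nop56 overlapped Idh3b by 5 bases, and both neighbours were higher (log2 0.33 and 0.44). Dkc1 overlapped Mpp1 by 45 bases and Nhp2 overlapped Rmnd5b by 44 bases, and both neighbours were lower (log2 -0.10 and -0.26). Carf and Pbrm1, the neighbours of Wdr12 and Gnl3, were not called. The part of these overlaps in the values of the 11 members was not tested. Counts were whole in all 4 libraries (within 0.001) for 17 of the 36 genes, of which 13 rose.

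Other genes of the pathway were counted from lists of textbook roles. Of 42 further small subunit factors 22 rose and 0 fell by edgeR's test (median log2 0.24; 25 higher and 0 lower at an unadjusted p under 0.05; 14 and 0 by DESeq2; 7 and 1 by limma on log2(TPM + 1)). Rrp7a averaged 87.4 ± 5.89 TPM in LUP libraries and 67.8 ± 2.97 TPM in vehicle libraries (1.44-fold), and Fcf1 72.2 ± 1.43 TPM in LUP and 56.5 ± 2.43 TPM in vehicle libraries (SD, n = 2 each). Nol7 rose 1.26-fold by counts, with overlapping TPM. Of 57 further large subunit factors 33 rose and 2 fell (median log2 0.24). Eif6, the factor that keeps immature large subunits from joining small ones, rose 2.03-fold to 129 ± 0.976 TPM with LUP, against 69.1 ± 4.72 TPM with vehicle. The 2 that fell were the large subunit factors Nsa2 (0.762-fold) and Nop53 (0.709-fold). Tma16, a large subunit factor chosen after its value was seen, had the largest rise, with 28.5 and 23.6 TPM with LUP and 6.27 and 5.48 TPM with vehicle (5.14-fold).

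Among 12 snoRNP assembly factors and nucleolar chaperones 7 rose and 1 fell (median log2 0.31). Snu13, a protein that box C/D snoRNPs are built on, rose 1.35-fold, the chaperone Nolc1 rose 1.24-fold, and Pih1d1, a part of the assembly complex, fell to 0.875-fold. The RNA exosome trims ribosomal RNA precursors, and 9 of its 13 tested genes rose and 0 fell (median log2 0.30; 9 higher and 0 lower at an unadjusted p under 0.05; 4 and 0 by DESeq2). Exosc3, Exosc10 and Exosc5 rose 1.23-fold, 1.26-fold and 1.25-fold. Exosc6 was listed at 0 in all 4 libraries.

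For transcription of the precursor, of 15 genes of RNA polymerase I and its factors 3 rose and 0 fell (median log2 0.02; 3 higher and 0 lower at an unadjusted p under 0.05; 3 and 0 by DESeq2; none by limma on log2(TPM + 1)). The 3 were Rrn3, which recruits the polymerase, the largest subunit Polr1a and the subunit Polr1e, with folds of 1.33, 1.27 and 1.56. For Polr1a the groups overlapped in TPM. Of 19 genes of RNA polymerase III, which makes the small ribosomal RNA and transfer RNAs, 6 rose and 5 fell (median log2 0.04). Its repressor Maf1 fell to 0.789-fold by counts, with overlapping TPM. Gtf3c2 fell to 0.883-fold, while Polr3c rose 1.31-fold. Of 13 tested host genes of small nucleolar RNAs Zfas1 rose 1.65-fold and Snhg8 fell to 0.640-fold, and the others were not called (median log2 -0.08). Whether any of these lists differed from the 36 genes was not tested.

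Myc, the transcription factor best known for driving ribosome production, was not called: it had 9.06 and 7.41 TPM with LUP and 6.92 and 6.98 TPM with vehicle (1.2-fold, adjusted p = 0.0951). It was named after its value was seen. In its network 4 of 9 tested genes rose and 3 fell. Its partner Max was 1.12-fold higher by counts, with overlapping TPM, and Mlx was 1.6-fold higher. Mxi1, a repressor that competes for Max, fell to 0.528-fold, averaging 29.0 ± 1.05 TPM in LUP libraries and 59.4 ± 1.07 TPM in vehicle libraries (SD, n = 2 each).

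The ribosomal proteins themselves went the other way. Of 78 genes of cytosolic ribosomal proteins 2 rose, Rpl24 and Rpl27, and 54 fell (median log2 -0.20). The number that rose was 5 without LUP replicate 1 and 1 without vehicle replicate 2, and leaving out 1 library gave 45 to 58 that fell. Their summed level was 55471 and 58825 TPM in the LUP libraries and 71990 and 71966 TPM in the vehicle libraries. Rplp1, a protein of the stalk, averaged 1726 ± 189 TPM in LUP libraries against 2418 ± 10.9 TPM in vehicle libraries (SD, n = 2 each). Rps15 fell to 0.734-fold and Rpl13a to 0.786-fold. Counts were whole for 7 of the 78 genes, so these levels depend on how reads shared with other genes were split. The 36 biogenesis genes together had 1635 and 1578 TPM with LUP and 1413 and 1453 TPM with vehicle.

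**Figure D4:**
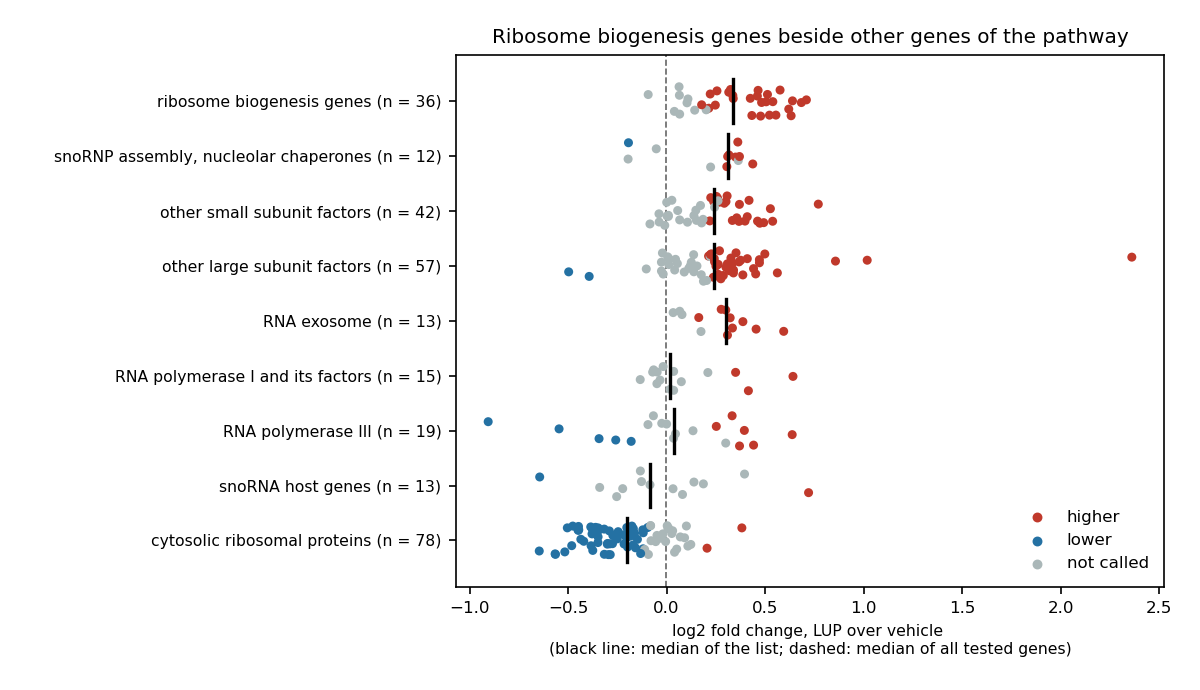
Log2 fold change of each tested gene, LUP over vehicle, for the 36 ribosome biogenesis genes (top) and 8 other lists; red genes were called higher, blue lower and grey not called, and the black line is each list's median. Medians are 0.34 for the 36 genes, between 0.24 and 0.31 for other processing lists, near 0 for polymerases I and III and -0.20 for ribosomal proteins.

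The libraries held between 19949818 and 23617618 counts, of which 1.05% to 1.14% lay in mitochondrial transcripts. The 10 most abundant genes took 15.38% and 15.89% of counts with LUP and 19.95% and 19.46% with vehicle, and TMM factors were between 0.982 and 1.02. The macrophage markers Lyz2 (15825 ± 245 TPM in LUP libraries, 22234 ± 206 TPM in vehicle libraries), Cd68 and Csf1r were abundant in all libraries, and 6 of 12 macrophage markers rose and 3 fell. Summed markers of T and NK cells, of B cells and of mast cells were under 8 TPM in every library, and Kit was the 1 gene called among these lists (higher, 0.68 and 0.68 TPM with LUP, 0.09 and 0.53 TPM with vehicle). The 10 neutrophil markers summed to 92.6 and 89.8 TPM with LUP and 29.6 and 34.0 TPM with vehicle, nearly all of it S100a8. Of the 3 neutrophil markers tested, S100a8 and Camp were called higher and Cxcr2 lower. Counts of Camp were 22 and 18 in the LUP libraries, against 0 in both vehicle libraries, and counts of Cxcr2 were 5 and 2 in the LUP libraries, against 14 and 25 in the vehicle libraries. Ly6g, S100a9 and Mpo had 0 counts throughout. If a gene's row could receive reads, a count of 0 is compatible with at most 3 counts per library, counting error alone considered. Whether the rows of these genes and of Exosc6 could receive reads was not tested, so the zeros do not show that the genes were absent. The 12 mesothelial and fibroblast markers summed to 137 and 104 TPM with LUP and 107 and 121 TPM with vehicle, a sum led by Col1a1 and Col1a2. Of the 11 tested, 2 were called higher, Col1a1 (1.37-fold) and Dcn (1.21-fold), and 5 lower (median log2 -0.54). DESeq2 called 1 higher and 3 lower, and limma on log2(TPM + 1) called 0 higher and 2 lower. The mesothelial markers Upk1b (0.37 and 0.26 TPM with LUP, 2.73 and 2.76 TPM with vehicle) and Lrrn4 (0.89 and 0.55 TPM with LUP, 2.56 and 3.31 TPM with vehicle) were among the lower ones. Of 14 markers of dividing cells 1 rose and 3 fell, with sums of 231 and 237 TPM with LUP and 298 and 299 TPM with vehicle, led by Pcna (156 ± 5.58 TPM in LUP libraries, 213 ± 0.403 TPM in vehicle libraries), which fell. The gene that rose was Mki67, with 7.04 and 5.52 TPM with LUP and 2.00 and 2.63 TPM with vehicle. Of 13 mitochondrial transcripts 1 rose and 9 fell. The part of these markers in the change of the 36 genes was not tested.

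The authors' deposited table gives its fold as vehicle over LUP, as comparison with the TPM columns shows, so a negative log2 value there means a higher level with LUP. Of the 36 genes, 22 were higher with LUP and 0 lower at an adjusted p under 0.05 in the authors' deposited table, beside 19.4% of the 13355 genes tested here. All 22 were also called higher here.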

How the data were processed

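Per the labels' protocols, total RNA was prepared with Illumina's TruSeq chemistry and sequenced as read pairs; strandedness of the kit is not given. The deposited table gives, for each of the 4 libraries, expected counts per gene, estimated by the authors and not scaled between libraries. It also gives TPM, computed by the authors for each library and as group means. The authors' fold (a ratio), its log2 value, its p-value and its adjusted p-value were deposited in the same table. The submitters' processing notes name fastp, HISAT2, StringTie and RSEM, with no role or version. Genome build, annotation and the authors' test are not given in the sources used here.

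Expected counts were rounded and tested with edgeR 4.0.16 in R 4.3.3 (quasi-likelihood, TMM, default low-count filter, treatment as the only term). Adjusted p-values (Benjamini-Hochberg) cover 13355 genes, with calls at 0.05, and the 95% intervals come from that fit. Alternatives were DESeq2 size factors, DESeq2 1.42.0, no filter, limma 3.58.1 on quantile-normalized log2 CPM (prior count 2) and on TPM (pseudocounts 1 and 0.1, genes reaching 1 or 5 TPM), a replicate block, and leaving out each library.

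Members and lists were chosen with earlier results of these data known, so lists are described by counts and medians. All 36 members are named, with up to 3 called genes of highest TPM from each other pathway list and the most abundant genes of each marker list; Tma16, Myc, Rpl24, Rpl27, Exosc6, Ly6g, S100a9, Mpo, Camp, Cxcr2, Kit, Mki67, Upk1b and Lrrn4 were added after their values were seen. Snhg4, with 2 rows, was left out. Genes with an ID but no symbol held 0.0356% to 0.0479% of counts and stayed in the test.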

Additional observations from a re-analysis of the deposited data

How the results depend on the processing

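The median change of the 36 genes stayed above 0 in all 12 alternatives, while the number called depended on the measure. With limma on log2(TPM + 1), log2(TPM + 0.1) and log2(TPM + 1) with at least 5 TPM, 13, 13 and 14 of the 36 genes were higher, and with the last filter 1 (Imp3) was lower. The median log2 fold change was then 0.21, 0.22 and 0.21, beside -0.08, -0.08 and -0.05 over all genes. It was 0.25 after quantile normalization, where the median of all genes was -0.07. The log2 fold change of Nip7 turned to -0.0915, -0.0939 and -0.0915 in the 3 TPM settings. Of the 139 other biogenesis genes tested (small and large subunit, snoRNP assembly, exosome and RNA polymerase I), 74 were higher and 3 lower in the main test. Higher calls were 22, 23 and 23 in the 3 TPM settings and 47 with DESeq2, and 5 were lower after quantile normalization. Over all genes 3621 of 13355 were higher in the main test and 2759 of 13355 with DESeq2. In the 3 TPM settings 1935 of 12059, 1920 of 12059 and 1838 of 9307 were higher. The cause of these differences was not tested. Leaving out 1 library at a time gave 23 to 27 higher genes among the 36, a median log2 fold change of 0.33 to 0.37, 66 to 71 higher among the other biogenesis genes and 3162 to 3470 over all genes.

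With 2 numbers only, shared numbers do not show that libraries are paired, and the deviations of same-numbered libraries had a correlation of -0.07. With a replicate block 26 of the 36 genes were higher and 0 lower, Nip7 being the call lost, and 3533 genes were higher and 3073 lower over all genes. Gar1, the gene of the 36 with the lowest counts (140 in vehicle replicate 1), also had the largest SE (0.15, log2). How much of such errors comes from depth and how much from the spread between libraries was not tested.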
